A study of Mus musculus with 12 samples.

Results

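Nkx2-1, Foxa1, Foxa2, Foxa3, Hnf4a, Hnf4g, Cebpa, Gata6 and Onecut2 encode transcription factors that set or hold the identity of lung and other foregut epithelia. The 9 genes were chosen by name, with earlier results of these data known, out of 18193 genes on the array. A gene was read from probe sets (groups of array oligonucleotides that report 1 transcript) annotated with its symbol alone, which gave 18 of the 45037 probe sets tested, and the one brightest on average over the 12 arrays stood for the gene. Total RNA came from frozen tissue of B6C3F1 mice, a hybrid of C57BL/6 and C3H used in long-term bioassays. One group was 6 spontaneous lung tumours and the other 6 normal lungs, all from untreated mice of 2 years kept in a National Toxicology Program study, with 1 Affymetrix array per sample. The comparison asks how a tumour that arose without treatment differs from normal lung. The labels give no tumour type or grade and no sex. Nothing in them ties each sample to an animal of its own, so every p-value measures only how these samples vary, which may be technical variation.

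In background, the primitive gut tube is divided into lung, stomach, liver and intestine by overlapping sets of such factors. Nkx2-1 is a homeodomain protein needed to form the lung and to keep the genes of alveolar type II cells, which make surfactant, switched on. Foxa1 and Foxa2 are forkhead proteins that open chromatin throughout the endoderm, and they serve lung genes beside Nkx2-1 and stomach, liver and gut genes beside Hnf4a. Cebpa is a leucine-zipper protein of differentiated alveolar, liver and fat cells. Hnf4a and Hnf4g are nuclear receptors of liver, stomach and intestine, and Onecut2 is a cut-homeodomain protein of liver, biliary tract, gut and neural tissue. In mouse lung tumours, loss of Nkx2-1 is known to be accompanied by stomach-like gene expression.

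Values are MAS5 signals in arbitrary units on a linear scale, scaled by the authors so that every array has nearly the same trimmed mean. They can be compared for 1 probe set between arrays but not between genes. A difference is the tumour mean less the normal lung mean of log2(signal + 16), printed with its standard error (n = 6 arrays per group). Adjusted p-values come from limma, with the Benjamini-Hochberg method run across every probe set tested and a threshold of 0.05.

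The proximal promoters of 4 members are shown: Foxa3 and Cebpa, which were called, and Nkx2-1 and Hnf4a, the lung factor and the gut and liver factor named above as partners of Foxa1 and Foxa2. All 5 windows of these genes are printed, with or without a match. The windows run from 250 bases before to 50 after a transcription start, come from RefSeq on build GRCm38.p6, and are written in the direction of transcription. The table held windows for 6 of the 9 members. Capitals mark letters that match a string typical of a factor's site, searched on both strands. The 7 strings were ATTGAT for Onecut factors, TGTTTAC for forkhead factors, the Hnf1 consensus, CAAAGTCCA for Hnf4 factors, AGATAA for Gata factors, CTCAAG for Nkx2-1 and TTGCNNAA for C/EBP factors. The genes and strings were chosen after values and windows had been seen.
Foxa3, chr7:19023490-19023789, minus strand: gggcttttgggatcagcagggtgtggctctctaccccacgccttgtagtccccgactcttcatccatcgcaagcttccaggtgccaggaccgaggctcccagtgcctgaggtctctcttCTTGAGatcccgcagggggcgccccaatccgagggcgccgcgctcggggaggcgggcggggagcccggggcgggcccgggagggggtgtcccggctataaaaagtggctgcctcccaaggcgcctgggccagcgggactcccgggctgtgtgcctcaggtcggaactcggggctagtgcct
Cebpa, chr7:35119043-35119342, plus strand: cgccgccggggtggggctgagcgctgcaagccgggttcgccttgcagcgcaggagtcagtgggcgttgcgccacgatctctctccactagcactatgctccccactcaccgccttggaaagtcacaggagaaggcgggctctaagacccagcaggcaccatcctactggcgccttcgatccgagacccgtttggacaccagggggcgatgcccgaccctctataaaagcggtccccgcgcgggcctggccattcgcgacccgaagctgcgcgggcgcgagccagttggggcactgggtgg
Nkx2-1, chr12:56536859-56537158, minus strand: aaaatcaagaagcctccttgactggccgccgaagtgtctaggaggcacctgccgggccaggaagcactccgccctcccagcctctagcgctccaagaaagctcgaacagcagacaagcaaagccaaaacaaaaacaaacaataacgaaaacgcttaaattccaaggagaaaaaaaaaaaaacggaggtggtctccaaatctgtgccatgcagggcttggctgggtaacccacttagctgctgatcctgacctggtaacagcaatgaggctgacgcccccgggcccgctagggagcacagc
Hnf4a, chr2:163506607-163506906, plus strand: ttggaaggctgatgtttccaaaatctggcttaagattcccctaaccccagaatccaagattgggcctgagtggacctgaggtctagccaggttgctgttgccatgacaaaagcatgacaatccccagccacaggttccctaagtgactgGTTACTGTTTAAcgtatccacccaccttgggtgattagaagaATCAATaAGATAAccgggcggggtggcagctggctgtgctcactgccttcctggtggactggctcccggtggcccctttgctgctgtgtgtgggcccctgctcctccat
Hnf4a, second start, chr2:163546905-163547204, plus strand: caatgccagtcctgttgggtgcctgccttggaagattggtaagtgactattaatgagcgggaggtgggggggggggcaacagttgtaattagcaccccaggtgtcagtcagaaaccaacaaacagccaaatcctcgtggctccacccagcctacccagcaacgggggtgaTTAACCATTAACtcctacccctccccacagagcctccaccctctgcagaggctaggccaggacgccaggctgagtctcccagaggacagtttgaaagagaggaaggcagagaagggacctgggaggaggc

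In the first Hnf4a window the Hnf1 string began at base 150, the Onecut string, on the opposite strand, at base 192 and the Gata string at base 199, counted from the window's 5′ end. The second Hnf4a window held an Hnf1 match on the opposite strand at base 171. The Foxa3 window held the Nkx2-1 string on the opposite strand at base 120, and the windows of Cebpa and Nkx2-1 held none of the 7 strings. Of the windows not printed, that of Foxa1 held the forkhead string, and the 3 of Foxa2 held the Gata and Nkx2-1 strings in 1, the Onecut string in another and none in the third. Of 32817 promoter windows of the same length, 0.935% held the Hnf1 string, 7.54% the Onecut string, 11.2% the Gata string and 15.9% the Nkx2-1 string. Among strings not found in the printed windows, the forkhead string was in 3.65% of all windows, the Hnf4 string in 0.475% and the C/EBP string in 10.8%. The matches are descriptions of the letters, and no binding was measured.

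Facts of the whole series that touch these genes were as follows. The median signal per array in normal lungs was 159 ± 5.21 and that of tumours 138 ± 8.19 (SD, n = 6; two-sided exact permutation p = 0.00216, the smallest that 6 against 6 arrays can give, also after adjustment over the 2 array measures). The mean log2 level of 11 pan-epithelial genes such as Epcam and Krt8 was 10.43 to 10.54 in normal lungs and 11.44 to 12.90 in tumours (exact permutation p = 0.00216). Of this list 10 genes rose and 0 fell by limma, and the same counts held at an unadjusted p under 0.05. Endothelial genes fell in 7 of 7 cases, ciliated-cell genes in 7 of 7, smooth-muscle genes in 6 of 6, cardiac-muscle genes in 5 of 6 and mesothelial genes in 4 of 6. Of 8 alveolar macrophage genes 4 rose and 1 fell, of 4 adipocyte genes 2 fell, and of 6 neutrophil genes 0 passed (2 were lower at an unadjusted p under 0.05). None of the endothelial, ciliated, muscle, mesothelial, adipocyte and neutrophil genes rose, at the adjusted or the unadjusted threshold. Markers of the labelled tissue were present: Sftpc, the surfactant protein C of type II cells, read 31265 or more on every array, and Scgb1a1, the club-cell secretoglobin, 12065 or more. The Y-linked gene Eif2s3y read 740.5 to 1638 in tumours 1, 2, 3 and 5 and at most 27.4 elsewhere, so the groups also differ in this mark of sex, and 3 of 4 sex-linked genes rose and 1 fell. Since the tissue was not sorted, fewer cells of a type and less RNA per cell cannot be told apart. The part of these shifts in the results below was not tested beyond the values given beside them.

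Of the 9 factors, Foxa3 and Cebpa rose in tumours, and the other 7 did not pass the threshold. The 2 of 9 higher stand beside 12.2% of all genes called higher in tumours, and the 0 of 9 lower beside 17.5% called lower (limma; at an unadjusted p under 0.05 the counts were also 2 and 0). The median difference was 0.31 over the 9 genes and -0.08 over all genes. Since the 9 were chosen with earlier results of these data known, the shares in this paragraph are descriptions and not a test. Only Foxa3 had groups that did not overlap, 1 of 9 genes beside 6.77% of all genes with every tumour above every normal lung. No member had every tumour below, beside 11.8% of all genes. The standard deviation of the log2 level was larger among tumours than among normal lungs for 9 of 9, beside 69.4% of all genes. For Hnf4g, near background, it was almost the same, at 0.67 in tumours and 0.64 in normal lungs. The standard deviation exceeded 1 among tumours for Hnf4a, Onecut2 and Cebpa, beside 7.37% of all genes.

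**Figure D1:**
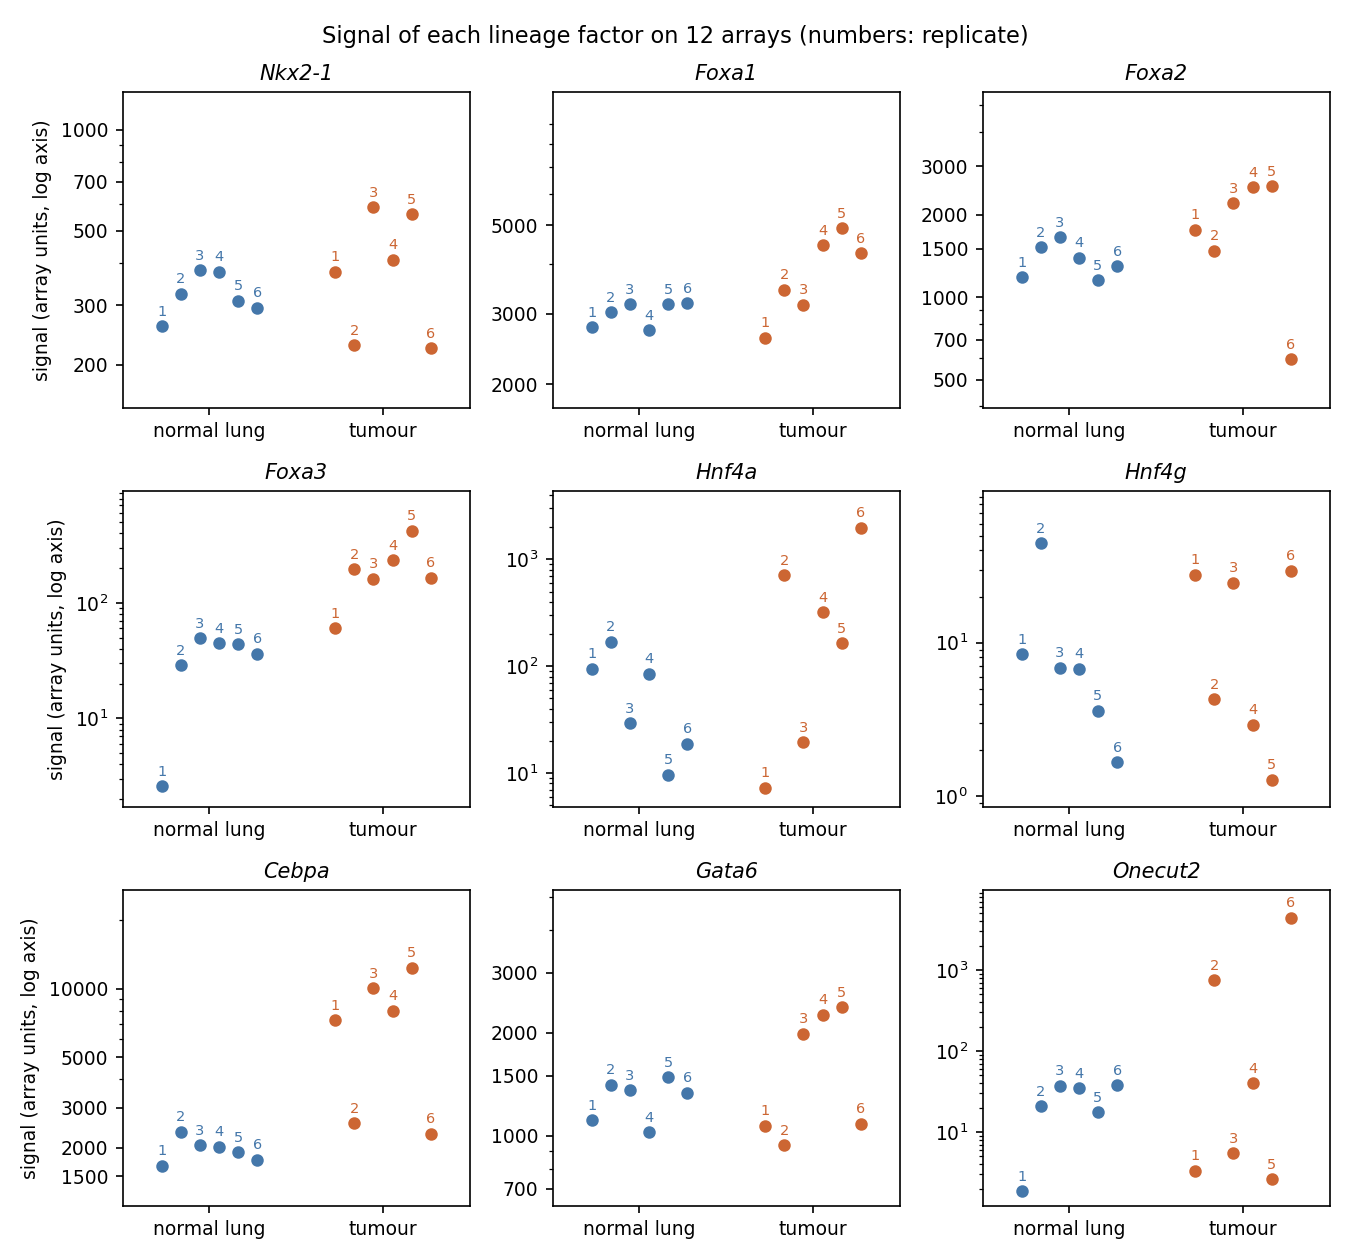
Signal of each of the 9 factors on every array (vertical log axis, MAS5 signal units), with normal lungs on the left and tumours, numbered, on the right of each panel. Foxa3 is separated between the groups, 5 of 6 tumours lie above the normal lungs for Cebpa, and tumours 2 and 6 stand far above the rest for Onecut2.

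Nkx2-1 did not pass the test, and the tumours lay on both sides of the normal lungs. In normal lungs its signal was 260.2 to 382 (median 317). Tumours 3 and 5 read 588 and 560, tumour 4 read 410, and tumour 1 read 378. Tumours 2 and 6 read 228 and 223. Thus 3 tumours lay above all normal lungs and 2 below all of them. The difference was 0.20 ± 0.23 (adjusted p = 0.603). These places are on the deposited scaling, where array medians were lower in tumours. After median centring the difference was 0.40 (limma adjusted p = 0.221), and the place of each tumour was not read there. The standard deviation of the log2 level was 0.20 in normal lungs and 0.58 in tumours.

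Cebpa, which in the lung is known to promote maturation of type II cells, had the higher level in 5 of 6 tumours. Normal lungs read 1667 to 2353 (median 1963). Tumours 5, 3, 4 and 1 read 12379, 10089, 8021 and 7295. Tumour 2, at 2568, lay just above the normal range and tumour 6, at 2309, inside it. The rise from 1962 ± 241 to 7110 ± 4029 (SD, n = 6) was a difference of 1.60 ± 0.36 (adjusted p = 0.00401). Tumours 2 and 6, those with the lowest Nkx2-1, were also the 2 tumours lowest in Cebpa. With Eif2s3y as a covariate the difference was 1.31 and no longer passed (adjusted p = 0.0848). Without the 4 tumours with Eif2s3y signal, where only tumours 4 and 6 were kept, it was 1.14 (adjusted p = 0.0414). The mean log2 level of the alveolar macrophage list was also lowest among tumours in tumours 2 and 6, but tumour 6 lay close to tumour 5. It was 12.32, 11.17, 11.38 and 11.12 in tumours 1, 3, 4 and 5, and 9.92 and 10.96 in tumours 2 and 6. Normal lungs stood at 9.52 to 10.22, below tumour 6, whose Cebpa lay inside the normal range. Tumour 1 had the highest list mean and the lowest Cebpa of tumours 1, 3, 4 and 5. The part of such cells in the Cebpa signal was not tested.

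Gata6, a zinc-finger factor needed for maturation of the airway and alveolar epithelium, did not pass the test on any of its 3 probe sets. Normal lungs read 1026 to 1484 (median 1349) on the brightest. Tumours 3, 4 and 5 read 1988, 2261 and 2377, above all normal lungs. Tumours 1 and 6, at 1070 and 1084, lay inside the normal range, and tumour 2, at 938, below it. The difference was 0.24 ± 0.23 (adjusted p = 0.518), and the dimmer probe sets gave 0.25 ± 0.19 (adjusted p = 0.390) and 0.79 ± 0.30 (adjusted p = 0.0703). All 3 probe sets placed tumours 3, 4 and 5 above every normal lung. They did not agree on tumour 2. On the second it read 511, inside the normal 485 to 642, and on the third 340, above the normal maximum of 331.

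The forkhead factors differed from each other in the test and in the tumours that stood apart. Foxa1 read 2730 to 3194 in normal lungs (median 3104). Tumours 2, 4, 5 and 6 lay above that range at 3447, 4462, 4916 and 4256, tumour 3 inside it at 3166 and tumour 1 below it at 2617. The difference was 0.31 ± 0.14 and did not pass (adjusted p = 0.148). It passed without tumour 1 (0.41, adjusted p = 0.0324) and after median centring of the arrays (0.51, adjusted p = 0.0167). It also passed without the tumours with Eif2s3y signal, where only tumours 4 and 6 were kept (0.53, adjusted p = 0.0122).

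Foxa2 read 1156 to 1658 in normal lungs (median 1348). Tumours 1, 3, 4 and 5 read 1762, 2201, 2517 and 2542, all above the normal range, and tumour 2 lay inside it at 1475. Tumour 6 read 594, below every normal lung and every other tumour. The difference over all arrays was 0.30 ± 0.28 (adjusted p = 0.504), and without tumour 6 it was 0.59 (adjusted p = 0.0127). In tumour 6, therefore, Foxa1 lay above the normal lungs and Foxa2 below them.

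Foxa3, the forkhead factor best known from liver and gut, was higher in every tumour, from a level near the floor of the array. Normal lungs read 2.58 to 49.5 (median 39.98). Tumours 1 to 6 read 60.1, 196, 162, 234, 422 and 165, so the lowest tumour lay above the highest normal lung. The rise from 34.3 ± 17.1 to 206 ± 121 (SD, n = 6) was a difference of 2.07 ± 0.40 (adjusted p = 0.00135). The signal exceeded the array's own median on 5 of the 12 arrays, so the size depends on the offset: it was 2.71 with an offset of 1 and 1.37 with an offset of 64. With the pan-epithelial mean as a covariate it was 1.47 and did not pass (adjusted p = 0.492), although that mean does not overlap between the groups and the fit then extrapolates.

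Hnf4a was high in single tumours on its brightest probe set and did not pass the test. Normal lungs read 9.68 to 170 (median 57.1) on the brightest probe set. Tumours 6 and 2 read 1987 and 716, and tumour 4 read 319, all above the normal lungs. Tumour 5, at 165, and tumour 3, at 19.4, lay inside the normal range and tumour 1, at 7.28, below it. The difference was 1.63 ± 0.93 (adjusted p = 0.238), and 0.97 without tumour 6. It was 3.53 and passed with Eif2s3y as a covariate (adjusted p = 0.0290), and 3.63 without the 4 tumours with Eif2s3y signal (adjusted p = 0.00917). Tumour 2, which is among the 4, was left out there, and only tumours 4 and 6 were kept.

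The other 3 Hnf4a probe sets ordered the tumours the same way at the top. Tumour 6 read 776, 686 and 207 and tumour 2 read 183, 224 and 100.2, and on each of the 3 these were the highest and second highest of the 12 arrays. Normal lungs read at most 76.5, 55.03 and 80.3. The differences were 1.499 ± 0.62, 1.54 ± 0.68 and 0.70 ± 0.38 (adjusted p = 0.0956, 0.123 and 0.214). The Hnf4a probe sets did not agree on tumours 3 and 5. Where the normal maximum was 76.5, tumours 3, 4 and 5 read 126.6, 90.96 and 108.6. On that probe set 5 of 6 tumours lay above all normal lungs, and tumour 1, at 7.34, lay below them. Where the normal maximum was 55.03 or 80.3, only tumours 2, 4 and 6 lay above it, as on the brightest probe set. Since Hnf4a is also a liver factor, liver genes were read beside it. The hepatocyte list of 16 genes stood at 5.55 and 6.75 in tumours 2 and 6, inside the 5.49 to 9.49 of normal lungs. Albumin read 9.89 in tumour 2 and 2119 in tumour 6, while it read 13843 and 13722 in normal lungs 2 and 4. These 2 normal lungs had the highest hepatocyte lists of all arrays, 8.71 and 9.49, and Hnf4a read 170 and 84.9 in them. Without them the Hnf4a difference was 2.15 (adjusted p = 0.206). Of the 16 liver genes 4 fell and 0 rose (6 and 0 at an unadjusted p under 0.05), and 1 fell without normal lungs 2 and 4. Apob, picked after its values were seen, read 3718 in tumour 6 and 7101 in tumour 5, but 55.97 in tumour 2. It read at most 209 in normal lungs and did not pass (limma adjusted p = 0.266).

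Hnf4g, the second Hnf4 receptor, was read only near background. Its 3 probe sets lay below the array's own median on all 12 arrays, between 1.09 and 60.4 signal units. The brightest gave 0.17 ± 0.35 (adjusted p = 0.782), and the others -0.27 ± 0.33 (adjusted p = 0.621) and 0.09 ± 0.37 (adjusted p = 0.890).

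Onecut2 was high in the same 2 tumours, 6 and 2, and near the floor of the array elsewhere. Tumour 6 read 4419 and tumour 2 read 744. The other tumours read 2.61 to 40.4 and the normal lungs 1.85 to 37.7 (median 27.8), so 10 of 12 arrays lay below their own median signal. The second probe set read 3275 and 908 in tumours 6 and 2 and at most 51.03 in normal lungs. The third read 3135 and 686 against at most 16.4. The differences over all arrays were 1.47 ± 1.15, 2.30 ± 1.0004 and 2.39 ± 1.05 (adjusted p = 0.406, 0.114 and 0.119), and none passed. On the brightest probe set the difference was 0.40 without tumour 6 and 0.91 without tumour 2. The standard deviation of the log2 level was 3.33 among tumours, the largest of the 9 genes, and 0.61 among normal lungs.

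**Figure D2:**
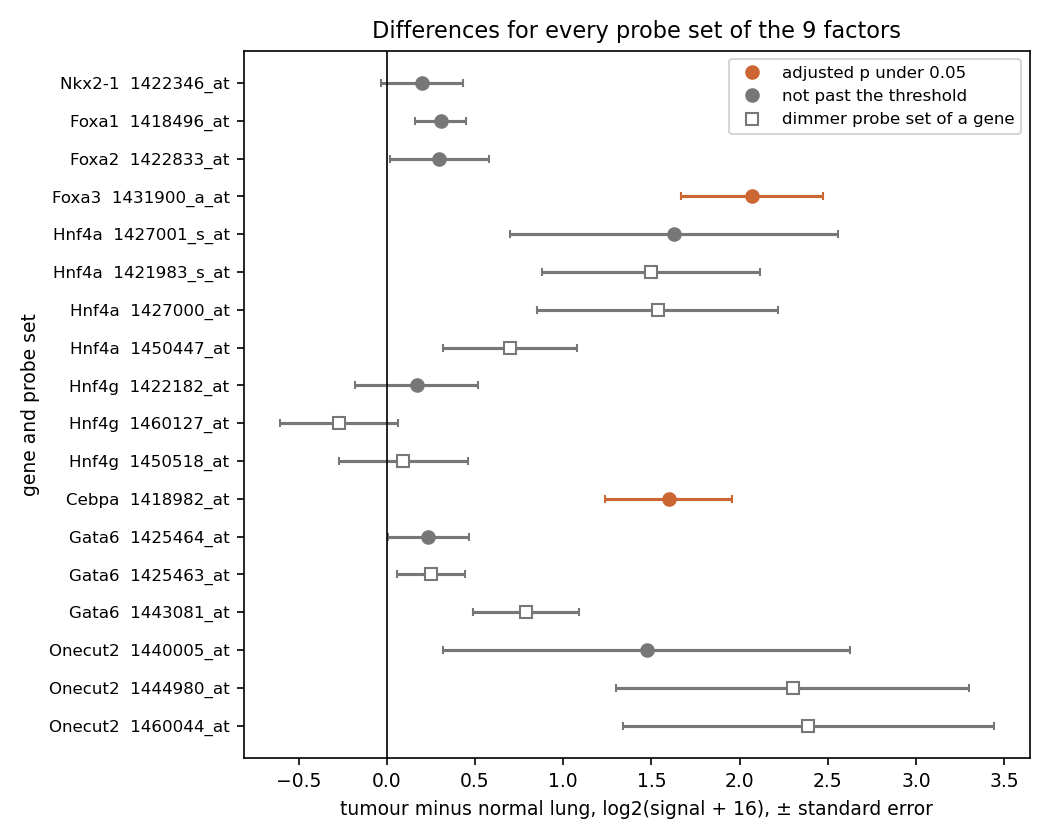
Tumour minus normal difference on the log2(signal + 16) scale, with its standard error (bars), for all 18 probe sets of the 9 factors (n = 6 arrays per group). Foxa3 at 2.07 and Cebpa at 1.60 passed the adjusted threshold, while the Hnf4a and Onecut2 probe sets had large differences with wide errors.

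Set against the mean of the normal lungs, the tumours differed in their combination of the factors, and some tumours shared parts of it. Tumours 3, 4 and 5 were above that mean in Nkx2-1 (0.84, 0.33 and 0.77), Foxa2 (0.69, 0.88 and 0.90), Cebpa (2.36, 2.03 and 2.66) and Gata6 (0.63, 0.82 and 0.89). Tumour 1 was near it in Nkx2-1 (0.22) and Gata6 (-0.25), with Cebpa at 1.89 and the smallest Foxa3 difference of the 6 (0.70). Tumour 2 was below it in Nkx2-1 (-0.47) and, on the brightest probe set, in Gata6 (-0.44), where the probe sets did not agree. Its Foxa2 (0.12) was near that mean, and its Cebpa (0.39), Hnf4a and Onecut2 were above that mean. Tumour 6 was below it in Nkx2-1 (-0.50) and Foxa2 (-1.17), near it in Cebpa (0.24), and above it in Hnf4a and Onecut2. The normal level of Hnf4a and Onecut2 is near background, so the size of these differences is set by the offset. With offsets of 64, 16 and 1 it was 2.69, 3.47 and 3.97 for Hnf4a in tumour 2, and 4.08, 4.92 and 5.44 in tumour 6. For Onecut2 it was 3.199, 4.31 and 5.23 in tumour 2, and 5.67, 6.85 and 7.80 in tumour 6. Tumours 4 and 5 were above it in Hnf4a as well (1.66 to 2.81 and 0.92 to 1.86 over the same offsets) while their Nkx2-1 was also above the normal mean. In the marker of sex tumours 2 and 6 differed: Xist, expressed from the inactive X chromosome, read 10184 in tumour 6 and 49.2 in tumour 2.

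**Figure D3:**
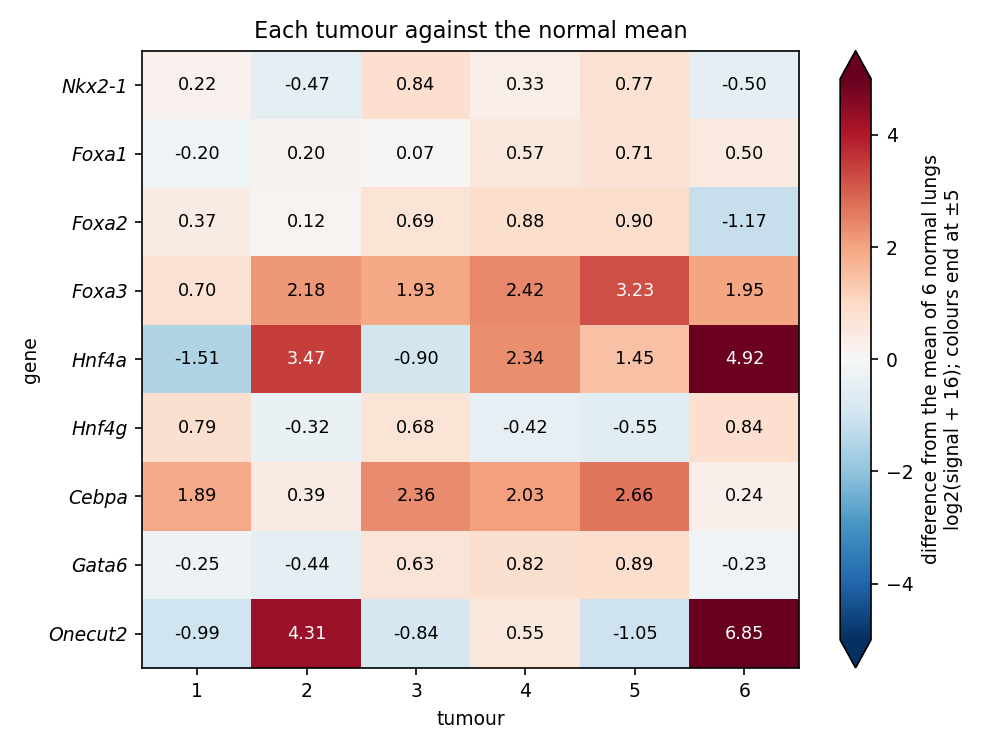
Each tumour minus the mean of the 6 normal lungs on the log2(signal + 16) scale (colour and printed value) for the 9 factors in rows and the 6 tumours in columns. Tumours 2 and 6 combine Nkx2-1 at -0.47 and -0.50 with Onecut2 at 4.31 and 6.85, and Foxa3 is above 0 in every tumour. Sizes for Foxa3, Hnf4a, Hnf4g and Onecut2, which are near background in normal lungs, depend on the offset of 16.

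Of 13 lung genes known as targets of Nkx2-1, 4 rose and 3 fell (6 and 3 at an unadjusted p under 0.05), with a median of 0.44 beside -0.08 over all genes. Napsa, a protease that processes surfactant protein B, rose by 1.37 ± 0.35 (adjusted p = 0.0102), and Abca3, the lipid pump of lamellar bodies, by 0.89 ± 0.28 (adjusted p = 0.0306). The genes given per array here were picked after their values were seen, and they did not all order the tumours as Nkx2-1 did. Abca3 read 12273 to 13479 in tumours 1, 3, 4 and 5, and 4471 and 4482 in tumours 2 and 6, within the normal 4350 to 5240. Napsa read 16242 to 25966 in tumours 1, 3, 4 and 5, 8068 in tumour 2 and 4258 in tumour 6, against 4936 to 5615 in normal lungs. Lpcat1, which makes the main surfactant lipid, did not pass (0.73 ± 0.28, adjusted p = 0.0695) and read 21585 to 25893 in those 4 tumours and 9258 and 7638 in tumours 2 and 6. Other targets went another way: the secretoglobins Scgb3a1, Scgb3a2 and Scgb1a1 were lowest among tumours in tumour 3, which had the highest Nkx2-1, at 288, 545 and 12065. Sftpb, the surfactant protein B, read 31868 in tumour 2, above the 27228 and 30866 of tumours 1 and 4. Scgb3a2, a club-cell secretoglobin, fell by 2.70 ± 0.66 on the log2 scale (adjusted p = 0.00721) and Ager, of type I cells, fell by 1.01 ± 0.27 (adjusted p = 0.0127). The list's counts moved with the setting: quantile normalization left 2 that rose and 2 that fell, and median centring 7 and 2. It was 1 and 1 without normal lungs 2 and 4, and 0 and 2 without the tumours with Eif2s3y signal (only tumours 4 and 6 kept). With Eif2s3y as a covariate it was 0 and 0, and every call of the list, Napsa and Abca3 included, was lost (1 and 2 at an unadjusted p under 0.05, limma).

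Of 18 genes of stomach and intestine, 6 rose and 0 fell by limma (7 and 0 at an unadjusted p under 0.05), with a median of 1.27. Cldn2, a claudin that forms cation pores, rose by 6.16 ± 0.44 (adjusted p = 2.87e-07) and read 1549 to 14644 in tumours and at most 93.4 in normal lungs. Gkn2, a gastrokine of the stomach surface, rose by 5.05 ± 1.004 (adjusted p = 0.00168), and was highest in tumour 4 at 18975. Ctse, the gastric aspartic protease cathepsin E, rose by 3.56 ± 0.76 (adjusted p = 0.00290) and was highest in tumours 2 and 6, at 18931 and 9189. Tff2, a trefoil peptide of gastric mucus, rose by 2.43 ± 0.65 (adjusted p = 0.0122). Krt20, Anxa10 and Lgals4 did not pass yet were high in the 2 tumours with Onecut2. They were picked after their values were seen. The keratin Krt20 read 7489 in tumour 2 and 7535 in tumour 6 and at most 75.4 elsewhere (adjusted p = 0.139). The annexin Anxa10, a gastric marker, read 9131 and 2702 and at most 61.8 elsewhere (adjusted p = 0.277). The galectin Lgals4, of the gut, read 1655 and 13932 and at most 268 elsewhere (adjusted p = 0.388). Others that did not pass lay differently. Tff3, a trefoil peptide of intestinal goblet cells, read 7959, 4329 and 2528 in tumours 5, 4 and 6 and 74.2 in tumour 2, inside the normal 35.8 to 166 (adjusted p = 0.174). Cdh17, an intestinal cadherin, read 6056 in tumour 6 but 133 in tumour 2 (adjusted p = 0.372). Gkn3, another gastrokine, was highest in tumour 5 at 774 (adjusted p = 0.922).

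The mean log2 level of the gastric and intestinal list was 5.99 to 6.53 in normal lungs and 6.67 to 9.58 in tumours. Tumours 6 and 2 had the highest at 9.58 and 8.97, followed by tumours 5 and 4 at 7.96 and 7.89. The lung target list stood at 12.9997 in tumour 6, below the 13.51 to 13.96 of normal lungs, and at 13.71 in tumour 2, inside that range. Tumour 3, with the highest Nkx2-1, stood at 13.75, also inside it. Pan-epithelial genes stood at 12.90 and 12.18 in tumours 2 and 6, the 2 highest of the 12 arrays, and alveolar macrophage genes at 9.92 and 10.96, the 2 lowest among tumours.

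**Figure D4:**
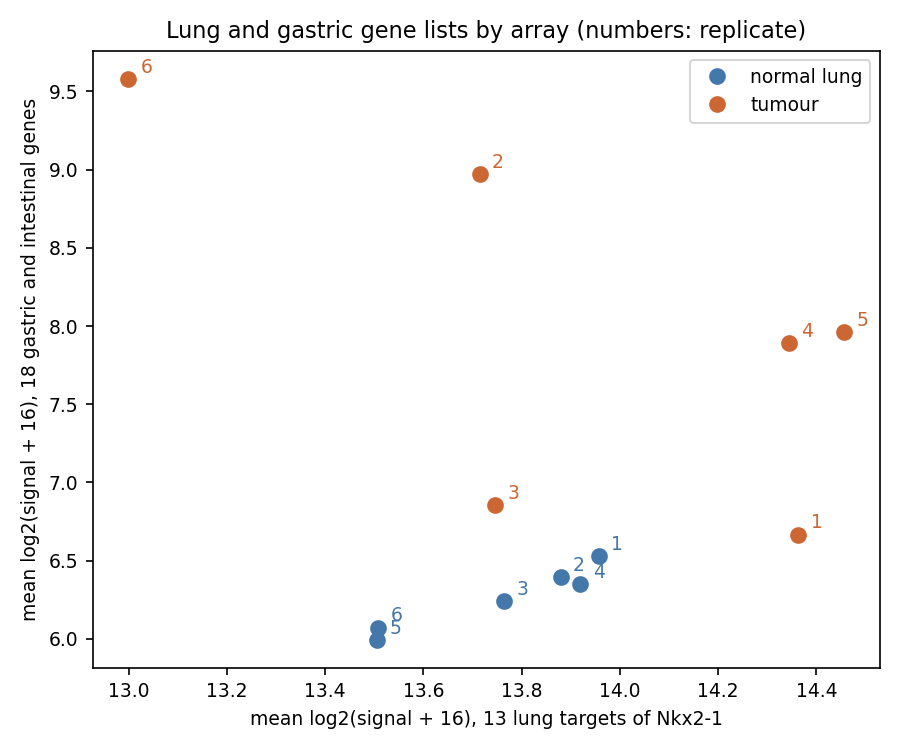
Mean log2(signal + 16) of 13 lung targets of Nkx2-1 (horizontal axis) and of 18 gastric and intestinal genes (vertical axis), 1 point per array, numbered by replicate and coloured by group. The gastric and intestinal list is 6.67 to 9.58 in tumours against 5.99 to 6.53 in normal lungs, with tumours 6 and 2 highest.

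Relatives of the members from the same families gave another pattern. Of 17 measured, 0 rose and 6 fell (the same counts at an unadjusted p under 0.05, limma), with a median of -0.43 beside -0.08 over all genes. Gata2, a factor of blood and endothelial cells, fell by 2.66 ± 0.21 on the log2 scale (adjusted p = 5.54e-07), and Gata3 fell by 2.16 ± 0.37 (adjusted p = 5.42e-04). The stress factor Ddit3 fell by 1.08 ± 0.13 (adjusted p = 1.77e-05). Cebpd and Cebpb, relatives of Cebpa that respond to inflammation, also fell, with Gata5. The difference of Cebpd was -1.02 ± 0.27 (adjusted p = 0.0104). Endothelial genes, where Gata2 is known to act, fell in 7 of 7 cases, as given above. Onecut1 and Onecut3, the other Onecut factors, did not pass (0.20 ± 0.42 and -0.12 ± 0.17, adjusted p = 0.783 and 0.669), and read at most 54.5 in any tumour. The counts of falls were 3 without normal lungs 2 and 4 and 4 after median centring.

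Of 28 other regulators of lung and foregut, 7 rose and 9 fell (9 and 9 at an unadjusted p under 0.05), with a median of -0.09. Id2, an inhibitor of helix-loop-helix factors that marks lung tip progenitors, rose by 2.79 ± 0.26 (adjusted p = 2.55e-06). The epithelial ETS factor Ehf rose by 2.10 ± 0.15 (adjusted p = 2.25e-07). Sox17, of endoderm and endothelium, fell by 2.63 ± 0.26 on the log2 scale (adjusted p = 4.09e-06). Hopx, of type I cells, fell by 2.35 ± 0.23 on the log2 scale (adjusted p = 3.87e-06). The median of this list changed sign between scalings, at 0.10 after quantile normalization and 0.08 after median centring. So did the median over all genes, from -0.08 to 0.01 and 0.10.

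The genes most like a member were found by the Pearson correlation of log2 levels over 12 arrays after each group's mean was subtracted, among genes brighter than the median gene. These are descriptions over arrays that share their groups, and tumours supply most of the spread. Nkx2-1 was most like Mrps28, Phc3 and Bex3 (r = 0.96, 0.95 and 0.95, and 0.88, 0.80 and 0.83 over 10 arrays without tumours 2 and 6, with group means taken again). Cebpa was most like Rapgef5, Tst and Rasgef1a (0.98, 0.97 and 0.97, and 0.76, 0.72 and 0.73 without the same tumours). Onecut2 was most like Ephx2, Ybx3 and Htr1b (0.99, 0.98 and 0.98, and 0.76, 0.71 and 0.78 without the same tumours). Hnf4a was most like Riox1, Eef2k and Fbxo31 (0.95, 0.92 and 0.91). Foxa1 was most like Zfp637 (0.94), Foxa2 most like Rabl2 (0.97) and Gata6 most like Prrc2c (0.95). For Foxa3 the best match, Pole3, went from 0.90 to 0.57 without tumour 1 and normal lung 1, and Hnf4g, near background, had Inpp5k at 0.82.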

How the data were processed

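Each sample was hybridised to 1 array after one-cycle labelling with biotin, per the labels' protocols, with groups taken from the sample titles. Linear signal intensity values were deposited for each probe set. The submitters' processing notes name MAS5, whose version and settings are not given in the sources used here. The trimmed mean was 497 to 498 on every array, so the authors' scaling was kept. Such scaling does not equalise array medians, which differed between the groups.

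Symbols came from the platform annotation: of 45037 probe sets tested (64 controls left out), 34945 had 1 symbol, 932 several and 9160 none. Values were fitted as log2(signal + 16) by limma (version 3.58.1, under R 4.3.3) with an intensity trend and no covariate, two-sided, with Benjamini-Hochberg adjustment. The fit was tested on simulated data. The number of arrays limits the precision. All 9 members and their probe sets are named, with up to 4 genes of each list by adjusted p, any gene given per array (picked after its values were seen), genes that define a cell type, and the 3 genes most like a member. The members and gene lists were chosen with earlier results of these data known. The 10 list genes with no probe set of a single symbol were not analysed here. Settings varied were median centring, quantile normalization, the offset, the trend, dim probe sets left out, array weights, how a gene is represented, covariates, the replicate number as a block, and leaving out arrays. The choice by highest mean log2 value was added after seeing the data.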

Additional observations from a re-analysis of the deposited data

Results flagged for a closer look

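Among 22 groups of 6 arrays read for these genes and array measures, 2 had an extreme sample by Dixon's gap ratio, above its 95% critical value, where chance alone flags about 5% of groups. Foxa3 in normal lung 1, at 2.58 signal units, lay below the other normal lungs with a gap of 0.702 of the group's range on the log2 scale. Hnf4g in normal lung 2, at 44.5 signal units, lay above them with a gap ratio of 0.737. Both values are below the median signal of their array.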

How the results depend on the processing

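Of 241 alternative values for the 9 genes, 226 kept their direction and side of the threshold, 2 lost the call, 6 gained one and 7 changed sign. The 226 include repeats of the main difference, since a gene with 1 probe set has the same difference however a gene is represented. Most of the 9 genes were not called in the main fit, so keeping the side often means staying uncalled. Leaving out arrays gave 0.23 to 0.41 for Foxa1 and 0.18 to 0.59 for Foxa2, each passing without the tumour named in the text, and 0.40 to 1.98 for Onecut2 and 0.97 to 2.25 for Hnf4a. Eif2s3y as a covariate gave 1.31 for Cebpa (no longer past), 3.53 for Hnf4a (past), -0.0016 for Foxa2 and -0.00040 for Nkx2-1. Without the tumours with its signal, only tumours 4 and 6 stood against the normal lungs. The difference was then -0.14 for Foxa2, -0.082 for Nkx2-1, 0.53 for Foxa1 (past) and 3.63 for Hnf4a (past). In that fit 4 of the 9 genes were higher, beside 1645 of all 18193 genes. Median centring gave Foxa1 0.51 (past), and the mean of its probe sets gave Hnf4g -0.0025. The pan-epithelial covariate, which extrapolates, gave 1.47 for Foxa3, -2.96 for Hnf4a and -5.26 for Onecut2, but 3.77 for Cebpa (adjusted p = 0.00743), 1.29 for Nkx2-1, 1.16 for Foxa2, 0.99 for Gata6 and 0.57 for Hnf4g, with 1 of 9 genes higher. The filter on dim probe sets removed Foxa3 and left 1 higher, beside 2320 higher among all genes it kept. Genes higher numbered 2216, and 3542 with median centring, 610 with the pan-epithelial covariate and 1320 with Eif2s3y. Genes lower numbered 3176, and 869 with the pan-epithelial covariate. Probe sets higher numbered 4529, and 7477, 1241 and 2603 under those settings and 3003 without normal lungs 2 and 4; probe sets lower numbered 6279, and 1408 with the pan-epithelial covariate and 4069 with Eif2s3y. The share of called genes that were higher was 41.1%. Quantile normalization gave 46.5% and median centring 60.2%, and the latter moved the median over all genes from -0.08 to 0.10. Same-numbered tumours and normal lungs did not deviate together (correlations -0.018 to 0.022, 0 of 6 best with their own number), and the fit with the replicate block changed no call among the 9 genes (Cebpa 1.60, adjusted p = 0.00614; Foxa3 adjusted p = 4.30e-04), with 1982 genes higher and 2890 lower. Signal near background limits Hnf4g, Foxa3, Hnf4a and Onecut2, which exceeded the array median on 0, 5, 5 and 2 of 12 arrays. The causes of these shifts were not tested.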

Other observations

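Regulators outside the 9 genes also separated single tumours, given here as values picked after they were seen. Etv5, an ETS factor of type II cells, read 1048 to 1848 in normal lungs, less in tumours 2 and 6 (552 and 669), and 2823 to 4284 in the other tumours (difference 0.59 ± 0.46, limma adjusted p = 0.406). Elf5, an ETS factor of lung and gland progenitors, read 529 and 804 in tumours 2 and 6 and 3559 to 9213 in the other tumours, against 597 to 778 in normal lungs (1.96 ± 0.56, adjusted p = 0.0177). Sox2, of the proximal airway, read 54.9 in tumour 6 and 1571 in tumour 2, on either side of the 750.1 to 1023 of normal lungs (-0.89 ± 0.56, adjusted p = 0.295). Pdx1, of pancreas and posterior foregut, read 586 in tumour 2 and at most 54.96 on the other 11 arrays. Vil1, the villin of brush borders, rose by 2.27 ± 0.72 (adjusted p = 0.0318) and read 332, 259 and 1248 in tumours 2, 4 and 6 against at most 72.6 in normal lungs.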
